A study of Mus musculus with 6 samples.

Results

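Calcineurin is a phosphatase that calcium-bound calmodulin switches on. It joins a catalytic A subunit, made from Ppp3ca, Ppp3cb or Ppp3cc, to a regulatory B subunit, made from Ppp3r1 in muscle. It strips phosphate from the NFAT transcription factors, which then enter the nucleus, and in skeletal muscle the nerve-driven activity of this route is known for its role in the slow-fibre programme. Rcan1 encodes a small protein that binds calcineurin and can inhibit it, and it is itself switched on by NFAT.

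The genes described here are Ppp3ca, Ppp3cb, Ppp3r1, Rcan1, Nfatc1, Nfatc2, Nfatc3 and Nfatc4, 8 genes chosen by name for their place in this route. Of these, 7 were found among the 11815 genes of the deposited table, and Nfatc4 had no row there, so no value is given for it. The tissue was gastrocnemius, in which fast fibres prevail, from mice of C57BL/6 background at 15 weeks of age. The groups were 3 libraries of wild-type (WT) mice, replicates 2, 3 and 4, and 3 libraries of knockout (KO) mice, replicates 1, 2 and 3, in which CRISPR had removed 5147 bp that hold the whole lnc-ORA transcript, a long non-coding RNA. The study asked how lnc-ORA acts on the conversion of fibre types. The labels do not say whether the WT mice were littermates, whether the KO mice came from a single founder, or whether an animal gave more than a single library, so a p-value here measures the spread between these libraries only.

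Values are RPKM, reads per kilobase of gene and scaled by the counted reads of the library, so levels can be compared between genes. Counted reads ran from 54370181 to 69693905 per library. Genotypes were compared with limma on log2(RPKM + 1) over the 7574 genes with at least 1 RPKM in at least 3 libraries, and a gene was called at a Benjamini-Hochberg adjusted p under 0.05 over all of these. By this rule 1311 genes were called, 17.3% of those tested, 290 higher (3.83%) and 1021 lower (13.5%) in KO. The median difference of all tested genes was -0.09 on the log2 scale. Dividing the RPKM values by TMM factors, which set aside the most changed genes when libraries are scaled, moved that median to 0.01 and the calls to 641 higher and 680 lower (17.4% in all), so each result below is also given with TMM factors where that changes it. Fibre markers (Acta1, Ckm, Myh4, Tnnt3, Tnni2, Des, Ttn and Atp2a1) summed to between 90817 and 97266 RPKM in WT and to between 100375 and 106197 RPKM in KO. None of the 8 was called, with or without TMM factors. Myh4 went from a mean of 33597 RPKM in WT to 41345 RPKM in KO. Myh4 and Ckm had all KO libraries above all WT libraries, and the other fibre markers overlapped. The part of fibre markers in the shift of the median was not tested.

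None of the 3 calcineurin subunit genes passed the test between genotypes. Ppp3cb, the beta catalytic subunit (chromosome 14, 20499364 to 20546573, minus strand, GRCm38), was at 17.9, 17.9 and 16.3 RPKM in WT replicates 2, 3 and 4. It was at 17.6, 20.5 and 19.7 RPKM in KO replicates 1, 2 and 3. KO replicates 2 and 3 lay above all WT libraries, while KO replicate 1 lay within their range. The log2 difference, KO minus WT, was 0.14 (95% interval -0.07 to 0.34, adjusted p = 0.308 in limma). The interval allows a change between 0.956-fold and 1.27-fold on the RPKM + 1 scale.

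Ppp3ca, the alpha catalytic subunit (chromosome 3, 136670124 to 136937727, plus strand, GRCm38), was at 6.18, 7.06 and 6.83 RPKM in WT and at 6.43, 6.31 and 6.95 RPKM in KO, in order of replicate. The groups overlapped throughout. The log2 difference was -0.02 (95% interval -0.21 to 0.17, adjusted p = 0.868), which allows between 0.863-fold and 1.12-fold. Its sign depended on the scaling, since TMM factors gave 0.10 (adjusted p = 0.538).

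Ppp3r1, the regulatory B subunit that binds calcium itself (chromosome 11, 17159263 to 17200375, plus strand, GRCm38), was at 14.2, 15.0 and 14.9 RPKM in WT and at 15.0, 16.6 and 16.9 RPKM in KO. As for Ppp3cb, KO replicates 2 and 3 were above all WT libraries and KO replicate 1 was not. The log2 difference was 0.12 (95% interval -0.06 to 0.31, adjusted p = 0.318). In GENCODE M21 the gene shares 462 exon bases with Wdr92 on the same strand, and 14.7% of the 50-base stretches of its longest transcript also occur in transcripts of Wdr92, so part of its reads could be counted for either gene. With TMM factors the differences of Ppp3cb and Ppp3r1 were 0.27 and 0.25, and neither was called (adjusted p = 0.0538 and 0.083 in limma). None of these 3 subunit genes was called in limma or limma-voom, and 0 had an unadjusted p under 0.05 on the deposited scaling, while 2 did with TMM factors or with equal library medians.

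Within each library the shares of the catalytic subunits can be compared free of the scaling. Ppp3cb made up 62.5% ± 1.66 of the summed RPKM of Ppp3ca, Ppp3cb and Ppp3cc in WT and 65.7% ± 1.39 among the KO libraries (SD, n = 3 each). Ppp3ca made up 24.1% ± 1.75 and 22.4% ± 1.54. Ppp3cc, the gamma subunit, best known from testis, had a share of 13.5%, 13.5% and 13.2% in WT and of 11.7%, 12.01% and 11.9% in KO. The groups did not overlap for this share. Nor did they for that of Ppp3cb, which ran from 61.1% to 64.4% in WT and from 64.7% to 67.3% in KO. The shares of a library add up to the whole, so these are not separate observations. In level, which moves with the scaling, the groups did not overlap for 38.2% of all genes of the table. No such background was computed for shares. The level of Ppp3cc, 3.73 ± 0.193 RPKM in WT and 3.47 ± 0.26 RPKM in KO, overlapped between the groups and was not called (adjusted p = 0.515). Ppp3r1 stood at 0.531 ± 0.0263 of the summed catalytic subunits in WT and at 0.551 ± 0.00687 in KO. No test was made of these shares.

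**Figure D1:**
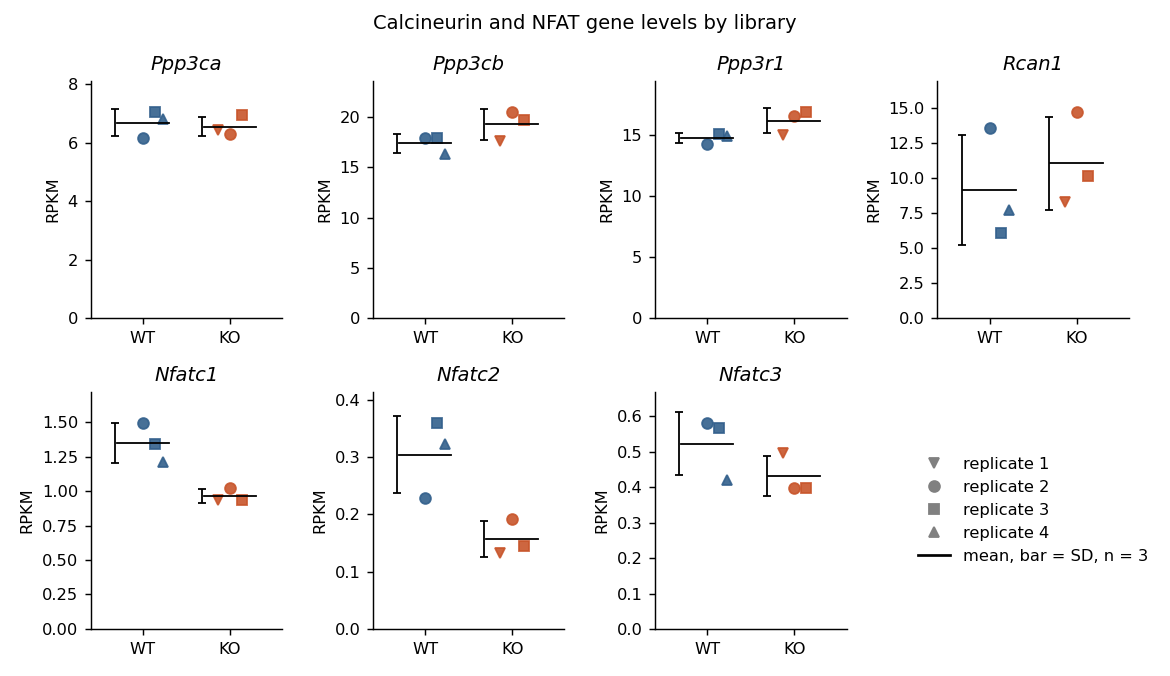
Level of the 7 genes in each library, in RPKM on a linear axis from 0, with WT libraries in blue, KO libraries in orange, 1 marker shape per replicate number, and the mean and SD of 3 libraries in black. The KO libraries lay below all WT libraries for Nfatc1 and Nfatc2, and the groups overlapped for the other 5 genes.

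Rcan1, the calcineurin-binding inhibitor (chromosome 16, 92391953 to 92470867, minus strand, GRCm38), varied widely between libraries of the same genotype. It was at 13.5, 6.09 and 7.73 RPKM in WT replicates 2, 3 and 4 and at 8.27, 14.7 and 10.2 RPKM in KO replicates 1, 2 and 3. Replicate 2 was the highest library of both genotypes, and the groups overlapped over most of their range. The log2 difference was 0.28 (95% interval -0.35 to 0.92, adjusted p = 0.504), which allows between 0.783-fold and 1.89-fold. Its SD within a genotype, 0.47 on the log2(RPKM + 1) scale, exceeded that of 99% of tested genes, against a median of 0.11. Without WT replicate 2 the difference was 0.58 (adjusted p = 0.108), and without KO replicate 2 it was 0.08 (adjusted p = 0.881) and without WT replicate 3 it was 0.06 (adjusted p = 0.906), so single libraries moved it by more than 1.5 times. Centred log2 values over the 6 libraries were compared with those of Rcan1 for 3087 tested genes with a mean of at least 5 RPKM. The 3 closest genes included Gsn and Myoc, with root mean square differences of 0.14 and 0.17, against a median of 0.42. Both genes, like Rcan1, were highest in replicate 2 of each genotype. They were picked for their likeness to Rcan1 over these libraries, so this is a description and no separate observation.

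Rcan1 is transcribed from more than 1 start, and the start in front of its exon 4 is the one known to answer to calcineurin and NFAT. RefSeq promoter windows (GRCm38.p6, 250 bases before to 50 after the start) are shown for both starts that the RefSeq table gives, because NFAT binds the core GGAAA. Capitals mark GGAAA and its reverse complement TTTCC, searched on both strands, and both windows are on the minus strand.
Rcan1 upstream start, chr16:92466120-92466419: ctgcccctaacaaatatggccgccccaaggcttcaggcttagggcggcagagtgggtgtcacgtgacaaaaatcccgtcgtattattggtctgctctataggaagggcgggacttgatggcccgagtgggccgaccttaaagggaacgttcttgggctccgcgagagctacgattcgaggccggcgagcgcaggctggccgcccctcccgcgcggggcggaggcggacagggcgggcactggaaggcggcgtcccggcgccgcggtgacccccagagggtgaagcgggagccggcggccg
Rcan1 internal start, chr16:92400029-92400328: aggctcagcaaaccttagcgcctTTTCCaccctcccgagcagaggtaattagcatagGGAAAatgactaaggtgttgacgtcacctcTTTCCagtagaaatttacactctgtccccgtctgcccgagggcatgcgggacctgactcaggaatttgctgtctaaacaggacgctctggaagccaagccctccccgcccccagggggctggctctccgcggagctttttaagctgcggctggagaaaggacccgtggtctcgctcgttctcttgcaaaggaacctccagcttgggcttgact
The upstream window held 0 matches and the internal window 3, of which 2 extend to TGGAAA. Such counts were not particular to Rcan1 among the members. The Ppp3cb window held 4, and a window each of Nfatc2 and Nfatc4 held 3, of which 1 extends to TGGAAA. The other Nfatc2 window held 1, those of Nfatc3 held 1 and 0, and that of Ppp3r1 held 0. Of 32851 RefSeq promoter windows of this length, 61.3% held at least 1 GGAAA and 9.42% at least 3, and 3.03% held at least 2 TGGAAA. The motif is short, and a match is a description of the letters, not of binding. The deposited value sums all Rcan1 transcripts, of which GENCODE M21 lists 7, so the transcripts from the 2 starts cannot be told apart.

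The NFAT genes were the least abundant, and Nfatc1 and Nfatc2 had all KO libraries below all WT libraries. The groups of 2 of the 7 genes (28.6%) thus did not overlap, while 38.2% of all genes of the table did not overlap and 29.9% had KO lower, so this count is no higher than the background. Nfatc1, the NFAT factor that slow-fibre nerve activity brings into the nucleus (chromosome 18, minus strand), was at 1.498, 1.34 and 1.21 RPKM in WT and at 0.938, 1.02 and 0.937 RPKM in KO. The highest KO library was below the lowest WT library. The log2 difference was -0.26 (SE 0.07, 95% interval -0.41 to -0.10, adjusted p = 0.0394 in limma), and Nfatc1 was the 1 gene called of the 5 that were tested, where 13.5% of all tested genes were called lower. It reached 1 RPKM in all WT libraries but in 1 KO library, so the WT libraries carried it over the filter. With no filter it was also called (adjusted p = 0.0456), beside Nfatc2, where 12.4% of genes were called lower.

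The call of Nfatc1 did not hold under other scalings of the RPKM values. It was at -0.18 with TMM factors (adjusted p = 0.0623) and at -0.16 with equal library medians (adjusted p = 0.105). Leaving out WT replicate 2, WT replicate 3 or any KO library also ended it (adjusted p from 0.0743 to 0.137). On the recovered whole reads, 776, 543 and 590 in WT and 479, 423 and 426 in KO, limma-voom with no filter called it at a log2 difference of -0.48 (adjusted p = 0.026), and with TMM factors at -0.34 (adjusted p = 0.045, where 9.16% of genes were called lower). The reads scale lacks the pseudocount of 1, which shrinks differences of a gene at this level. The genes closest to Nfatc1 over the 6 libraries, of 3088 compared, were Hnrnpdl, Nbr1 and Rbm17. Each was at a root mean square difference of about 0.02 on the log2(RPKM + 1) scale, against a median of 0.16. The pseudocount shrinks the difference of Nfatc1 more than those of these more abundant genes, so the likeness holds for this scale only.

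Nfatc2, a factor known from lymphocytes and from the growth of new muscle fibres (chromosome 2, 168476410 to 168601657, minus strand, GRCm38), was at 0.229, 0.36 and 0.323 RPKM in WT and at 0.132, 0.192 and 0.145 RPKM in KO. It stayed under the filter in every library and rested on 94 to 224 reads per library. The KO libraries were all below the WT libraries, and an exact permutation test of 3 against 3 cannot give a two-sided p below 0.1. With no filter, the limma difference was -0.17 (95% interval -0.28 to -0.07, adjusted p = 0.0372). On reads, limma-voom with no filter gave -0.95 (95% interval -1.46 to -0.44, adjusted p = 0.0223), a level 0.519-fold that of WT, where 13.6% of genes were called lower. With TMM factors that fit gave -0.79 (adjusted p = 0.0536), which did not pass. The limma call with no filter held without WT replicate 2 and ended when any other library was left out (adjusted p from 0.064 to 0.132).

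Nfatc3 (chromosome 8, 106058840 to 106130537, plus strand, GRCm38), a factor known from muscle precursors, was at 0.582, 0.568 and 0.42 RPKM in WT and at 0.496, 0.399 and 0.399 RPKM in KO. KO replicates 2 and 3 were below all WT libraries and KO replicate 1 was not. It too was under the filter, and limma-voom with no filter gave -0.26 (95% interval -0.63 to 0.11, adjusted p = 0.293). Its exons overlap those of Esrp2 on the opposite strand by 219 bases, and the sources used here do not say whether the counting used strand. The 3 NFAT genes summed to 2.31, 2.27 and 1.95 RPKM in WT and to 1.57, 1.61 and 1.48 RPKM in KO. Nfatc1 held 62.0% ± 2.85 of this sum in WT and 62.2% ± 1.998 among the KO libraries (SD, n = 3 each), so its share differed by less than the spread.

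**Figure D2:**
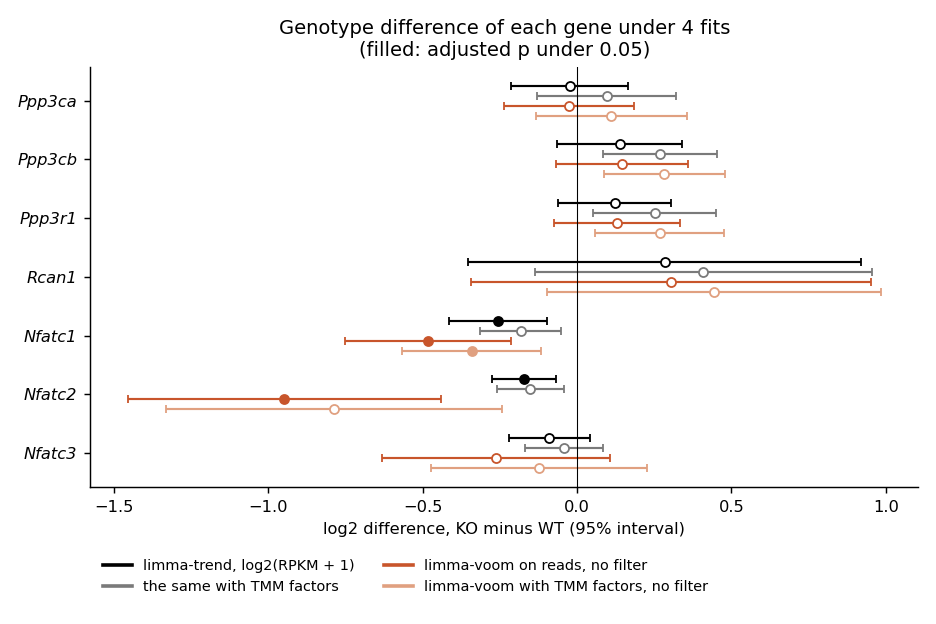
Log2 difference, KO minus WT, of the 7 genes under 4 fits, with 95% intervals; filled points have an adjusted p under 0.05, and the fits on log2(RPKM + 1) use no filter for Nfatc2 and Nfatc3. Nfatc1 was called in 3 of the 4 fits, Nfatc2 in 2 and the other genes in none.

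NFAT genes are expressed in several cell types of muscle, and in bulk RNA fewer cells of a type and less RNA per cell cannot be told apart. Of 8 endothelial markers 7 were tested and 1 was called lower, where 13.5% of all tested genes were. This was Cldn5, from 2.57 ± 1.005 to 0.711 ± 0.0275 RPKM. It reached 1 RPKM in the 3 WT libraries only and so passed the filter through the group where it is high. The 8 markers summed to between 22.8 and 34.2 RPKM in WT and between 19.2 and 21.4 RPKM in KO. Of 4 Schwann cell markers Sox10 was under the filter, and Pmp22, Prx and Mbp were tested and called lower, beside the same 13.5%. Prx and Mbp reached 1 RPKM in the 3 WT libraries only, so the filter bears on this count. The 4 summed to between 12.3 and 18.7 RPKM in WT and between 3.32 and 4.41 RPKM in KO. Of 8 lymphocyte markers only Ptprc had a row, at 0.0763 to 0.151 RPKM in WT and 0.0973 to 0.142 RPKM in KO. The part of endothelial and Schwann cell RNA in the NFAT differences was not tested. Of the other marker lists, that of fibro-adipogenic progenitors had 2 called higher of 5 tested (Col3a1 and Smoc2), beside 3.83% of all tested genes. Both calls ended when any library but WT replicate 2 was left out, at an adjusted p of up to 0.107 and 0.137. Of 1 macrophage, 5 smooth muscle and 1 satellite cell gene 0 were called, where the unadjusted p in limma was under 0.05 for 0, 1 (Pdgfrb) and 0 of them. With TMM factors the pericyte gene Rgs5 was called higher (adjusted p = 0.0323). Of 5 adipocyte markers 0 had a row.

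Ordered by level, the genes ran Ppp3cb (a mean of 18.3 RPKM over 6 libraries), Ppp3r1 (15.4), Rcan1 (10.1), Ppp3ca (6.62), Nfatc1 (1.16), Nfatc3 (0.477) and Nfatc2 (0.230). Ppp3cb was above Ppp3r1 and Ppp3r1 above Rcan1 in 6 of 6 libraries, though the ranges of each pair over the libraries overlapped. Rcan1 was above Ppp3ca in 5 of 6 libraries, so those neighbours did not differ beyond their spread. From Ppp3ca downwards no ranges of neighbours overlapped. Among relatives outside the set, Rcan2, a second calcineurin inhibitor of the same family, was at 18.0 ± 4.76 RPKM in WT and 15.0 ± 1.75 RPKM in KO (adjusted p = 0.427) and so ranked with Ppp3cb and Ppp3r1. Nfat5, the relative that calcineurin does not control, was at 0.788 to 1.31 RPKM and Rcan3 at 0.198 to 0.278 RPKM over the 6 libraries.

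**Figure D3:**
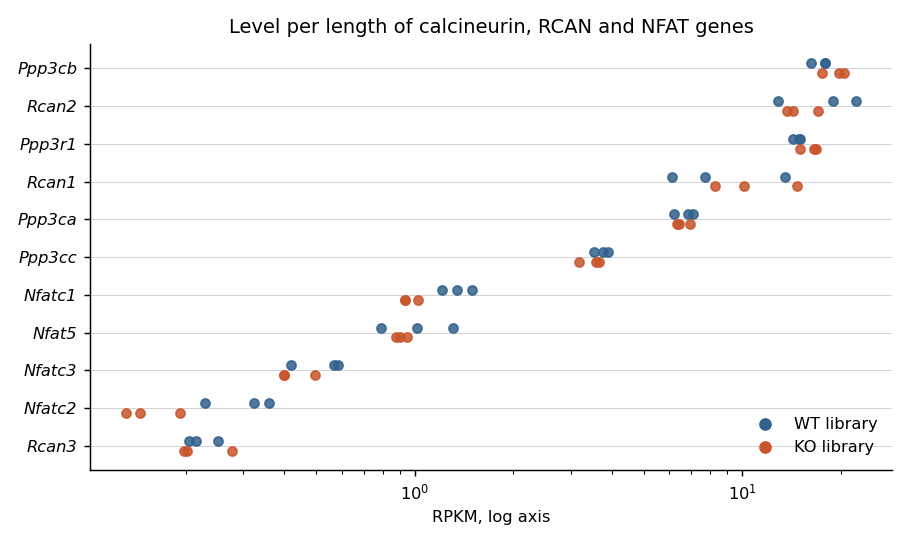
Level per length of 11 calcineurin, RCAN and NFAT genes in RPKM on a log axis, with 1 point per library, WT in blue and KO in orange. The calcineurin subunits and the inhibitors Rcan1 and Rcan2 lay between 3.17 and 22.3 RPKM and the NFAT genes between 0.132 and 1.498 RPKM.

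Some genes upstream of calcineurin passed the test, though not all in the same direction. Calmodulin carries the calcium signal to calcineurin, and of its genes Calm2 and Calm3 are described here. Calm3 rose from 72.5 ± 7.47 to 105 ± 1.66 RPKM (log2 difference 0.53, adjusted p = 0.00967 in limma), where 3.83% of all tested genes were called higher. Calm2 was at 199 ± 43.4 RPKM in WT and 284 ± 24.3 RPKM in KO and did not pass (log2 difference 0.53, adjusted p = 0.0524), while with TMM factors it was called (adjusted p = 0.0477).

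Of 8 tested genes of calcium entry and release, 2 rose and 1 fell, beside 3.83% and 13.5% of all tested genes, with a median difference of 0.05. Stim2, a sensor of calcium in the sarcoplasmic reticulum, went from 3.49 ± 0.426 to 5.69 ± 0.415 RPKM (log2 difference 0.58, adjusted p = 0.00771). Homer1, a scaffold of calcium channels, went from 2.03 ± 0.175 to 3.08 ± 0.167 RPKM (0.43, adjusted p = 0.0104). The store-operated channel Orai3 fell from 1.17 ± 0.0828 to 0.711 ± 0.25 RPKM (adjusted p = 0.0494), tested only because the 3 WT libraries reached 1 RPKM, and its call ended with TMM factors (adjusted p = 0.122) and without any replicate but KO replicate 1 (adjusted p up to 0.17). The release channel Ryr1 was at 125 ± 15.0 and 138 ± 14.1 RPKM and was not called (adjusted p = 0.437).

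Among 11 tested calcineurin-binding genes, 1 rose and none fell, beside 3.83% and 13.5% of all tested genes, with a median difference of -0.02. This was Akap6, an anchoring protein of the nuclear envelope and sarcoplasmic reticulum that holds calcineurin, from 4.29 ± 0.27 to 6.02 ± 0.239 RPKM (log2 difference 0.41, adjusted p = 0.0127). This call ended when KO replicate 2 or KO replicate 3 was left out, at an adjusted p of up to 0.0664. Of the calsarcins, Z-disc proteins that tether calcineurin, Myoz1 was at 659 ± 53.5 and 648 ± 53.7 RPKM, Myoz2 of slow fibres at 45.2 ± 19.5 and 23.9 ± 8.36 RPKM and Myoz3 at 2.41 ± 0.39 and 3.71 ± 1.23 RPKM. None of them was called (adjusted p = 0.89, 0.089 and 0.116). With TMM factors the cyclophilin gene Ppia, whose protein holds calcineurin when cyclosporin is bound, was also called higher (adjusted p = 0.0299).

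Of 13 kinases that put phosphate back on NFAT, 3 fell and none rose, beside 13.5% and 3.83% of all tested genes, and the median difference was -0.13, against -0.09 over all tested genes. Csnk1e, a casein kinase 1, went from 10.8 ± 1.35 to 6.25 ± 0.183 RPKM (log2 difference -0.70, adjusted p = 0.00481) and Dyrk2 from 2.71 ± 0.343 to 1.46 ± 0.124 RPKM (-0.59, adjusted p = 0.00614). Both calls held in every replicate left out, with adjusted p of up to 0.0259 and 0.0356. Dyrk1b fell from 3.34 ± 0.13 to 2.62 ± 0.112 RPKM (adjusted p = 0.0442), a call that ended with TMM factors (adjusted p = 0.161), with no filter and without any replicate (adjusted p up to 0.146). With TMM factors the split of this list was 3 higher and 2 lower, beside 8.46% and 8.98% of all tested genes. Mapk14, Prkaca and Prkacb were those called higher (adjusted p = 0.0157, 0.0366 and 0.0233).

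Of 6 tested transcription partners 2 fell and none rose, beside 13.5% and 3.83% of all tested genes. Jun, which binds DNA beside NFAT as part of AP-1, went from 20.7 ± 1.79 to 12.7 ± 1.41 RPKM (log2 difference -0.66, adjusted p = 0.00666), and Mef2d, of the MEF2 factors that also answer to calcineurin, from 10.8 ± 1.22 to 7.86 ± 0.503 RPKM (-0.41, adjusted p = 0.0248). The call of Mef2d ended when WT replicate 3 or a KO library was left out, at an adjusted p of up to 0.0962. Of 7 other calcineurin substrates 2 fell, where 13.5% of all tested genes did, the phosphatase inhibitor Ppp1r1a, from 21.7 ± 1.03 to 16.7 ± 0.722 RPKM (adjusted p = 0.0208), and the forkhead factor Foxk1, from 1.43 ± 0.374 to 0.792 ± 0.156 RPKM (adjusted p = 0.0404). Foxk1 reached 1 RPKM in the 3 WT libraries only and passed the filter through them. The call of Ppp1r1a ended with TMM factors (adjusted p = 0.11) and when WT replicate 3 or a KO library was left out (up to 0.0861), and that of Foxk1 when any library but WT replicate 4 was (up to 0.136). With TMM factors Dnm1l, the mitochondrial fission GTPase, was called higher in the same list (adjusted p = 0.0176).

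Of 13 tested slow-fibre and oxidative genes known as calcineurin targets, 1 rose and 3 fell, beside 3.83% and 13.5% of all tested genes. Their median difference was -0.19, against -0.09 over all tested genes. With equal library medians it was -0.09, against 0.01 over all tested genes. With TMM factors Myh7, Myl3 and Utrn, all below 0 as reported, turned to 0.01, 0.05 and 0.04. Ppargc1a, the coactivator of mitochondrial genes, was the 1 that rose, from 1.77 ± 0.449 to 4.34 ± 1.03 RPKM (log2 difference 0.94, adjusted p = 0.0082). The 3 that fell were the oxygen store myoglobin, Mb, from 1620.5 ± 236 to 872 ± 215 RPKM (log2 difference -0.91, adjusted p = 0.014), the type IIa myosin Myh2, from 1621 ± 168 to 896 ± 308 RPKM (-0.90, adjusted p = 0.0261), and the mitochondrial fatty acid importer Cpt1b, from 20.02 ± 2.16 to 14.8 ± 1.05 RPKM (-0.41, adjusted p = 0.0282). Leaving out KO replicate 1 or KO replicate 3 ended the calls of Mb (adjusted p up to 0.0638), Cpt1b (up to 0.116) and Myh2 (up to 0.102). Leaving out WT replicate 2 also ended those of Cpt1b and Myh2, and leaving out WT replicate 3 that of Myh2. The slow contractile genes spread widely among the WT libraries, as with Tnnt1 at 213 ± 150 and 148 ± 42.5 RPKM and Tnnc1 at 89.3 ± 63.1 and 62.8 ± 15.4 RPKM, and none was called (adjusted p = 0.853 and 0.886). Over all 7 lists, 59 genes were tested and 16 called (27.1%, against 17.3% of all tested genes), 5 higher and 11 lower. The lists were chosen with earlier results of these data known, and a few of their genes were left out. This share is therefore a description and no independent evidence about the pathway. Orai3 and Foxk1, among the called genes, passed the filter through the WT libraries only. With TMM factors 19 were called, 11 higher and 8 lower, where 8.46% of all tested genes were called higher and 8.98% lower.

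**Figure D4:**
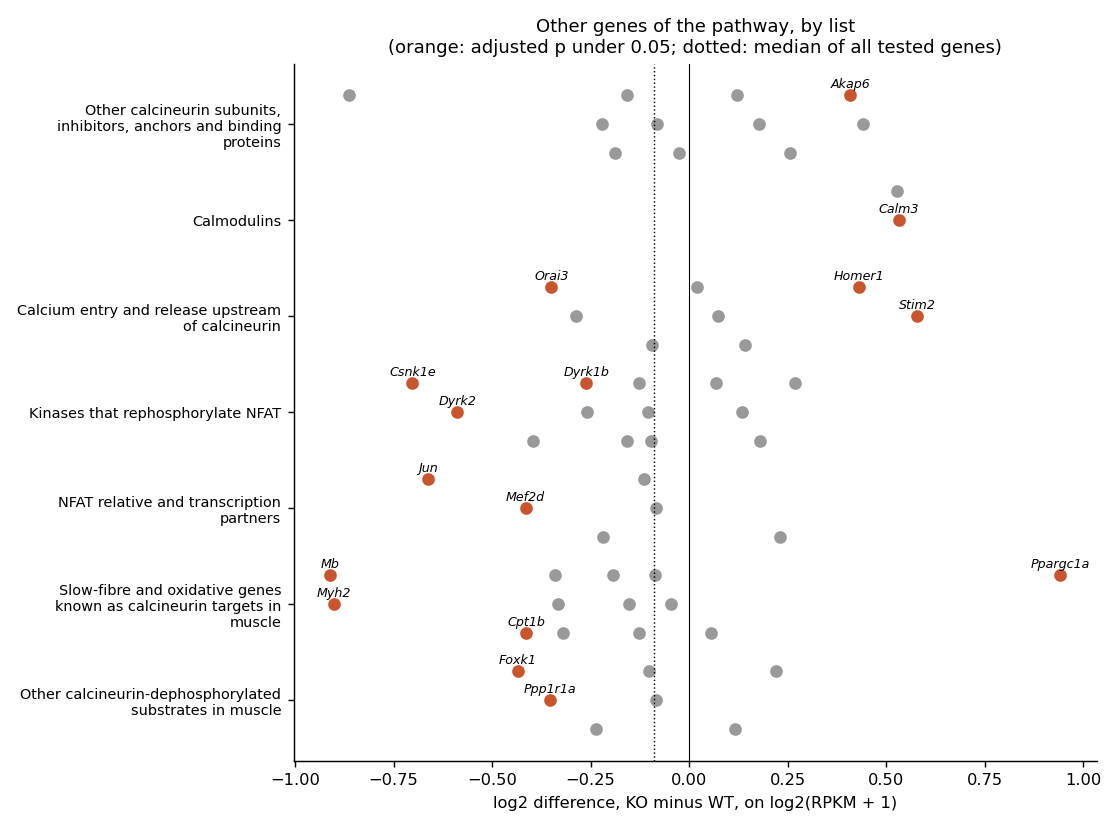
Log2 difference, KO minus WT, on log2(RPKM + 1) of the tested genes of the 7 pathway lists, 1 point per gene, with called genes in orange and named; the dotted line is the median of all tested genes, -0.09. Calm3, Stim2, Homer1, Akap6 and Ppargc1a lie to the right and 11 called genes to the left of 0.

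The authors' deposited table gives its own fold change and test for each gene, and the sources used here do not name that test. In the authors' deposited table none of the 7 genes had an FDR under 0.05, as 1.62% of all genes did, with values from 0.103 for Nfatc2 to 0.73 for Nfatc3. In the authors' deposited table the unadjusted p was under 0.05 for Ppp3cb (0.0355), Ppp3r1 (0.0225) and Nfatc2 (0.00816), as for 22.2% of all genes. The log2 fold change in the authors' deposited table was 0.23 for Ppp3cb, 0.22 for Ppp3r1, 0.13 for Ppp3ca, 0.22 for Rcan1, -0.25 for Nfatc1, -0.69 for Nfatc2 and -0.09 for Nfatc3. Across the 11815 genes, the fold change of the authors' deposited table exceeded the log2 ratio of the mean RPKM by a median of 0.14, with quartiles of 0.08 and 0.21. The gap differed between genes, from -0.06 for Rcan1 to 0.27 for Nfatc2 among the 7, and the sources used here do not name the normalization or the samples behind the authors' deposited table.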

How the data were processed

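Gastrocnemius RNA of 3 WT and 3 KO libraries was sequenced, and genotype and replicate came from the titles. The authors deposited a table of all libraries whose header states no unit, and its values were read as RPKM for the reason below. The submitters' processing notes name GRCm39; the sources used here do not name the aligner, counter or annotation. The authors' deposited log2 fold change, log2 CPM, F score, p-value and FDR columns are named per the file headers.

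The values became whole reads (within 0.02) for 11815 of 11815 genes when a length per gene and a total per library were multiplied in. GENCODE M21 lengths served 9227 genes and other lengths were inferred. Chi-square over its degrees of freedom was 25.3 or more between libraries of a group, so none was a copy or a mere re-sequencing of another. This does not tell whether libraries came from the same animal. The test was limma-trend (limma 3.58.1, R 4.3.3) on log2(RPKM + 1), genotype as the only term, for genes with at least 1 RPKM in at least 3 libraries. The limma-trend and limma-voom code was also run on simulated reads. These had the same extra spread for every gene, no scaling shift between the groups and no shared replicate effects. That run therefore does not bear on how the calls respond to such features of these data. The pseudocount of 1 understates changes of low genes. TMM factors (0.918 to 1.13) were computed from the reads, trimming 30% of ratios and 5% of levels per end. Members and lists were chosen with earlier results of these data known, and a few genes of the lists are not reported here and were left out of their counts. All 7 members with values are named; of each list, up to 4 called genes with the smallest p, or, with no call, the gene of smallest p, and further genes (the calsarcins, Calm2, Ryr1, Tnnt1, Tnnc1, and those called with TMM factors) were named after their values were seen. Alternatives were a pseudocount of 0.1, no filter, equal library medians, TMM factors, each replicate left out, the replicate number as a block and limma-voom on the reads; those joining no filter with another change were added after seeing the data. Python 3.11.15, pandas 2.3.3, numpy 2.4.6 and matplotlib 3.10.9 did the rest.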

Additional observations from a re-analysis of the deposited data

How the results depend on the processing

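No setting called Ppp3ca, Ppp3cb, Ppp3r1, Rcan1 or Nfatc3. Ppp3cb, Ppp3r1 and Rcan1 stayed above 0 as reported and in 15 alternative fits each, and Nfatc1 and Nfatc2 below 0 in every fit run for them. The difference of Ppp3ca, -0.02 as reported, turned to 0.0776 with equal library medians, 0.10 with TMM factors, 0.00265 with the replicate block and 0.11 in limma-voom with TMM factors and no filter, and lay between -0.0721 and 0.0113 with single replicates left out. That of Nfatc3 turned from -0.09 to 0.0120 with equal library medians and no filter, a setting that shifts a gene near 0 RPKM by as much as an abundant one.

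Nfatc1, -0.26 as reported, was no longer called at -0.16 (equal library medians), -0.18 (TMM factors) and -0.29 (replicate block), and ranged from -0.30 to -0.21 with single replicates left out. Nfatc2, -0.17 with no filter, was not called at -0.0712 (equal library medians), -0.15 (TMM factors), -0.15 (replicate block) and -0.79 (limma-voom with TMM factors), and ranged from -0.21 to -0.14 with single replicates left out, at -0.19 without KO replicate 2, with its call lost in 5 of those 6 fits. Where the scaling is not the cause by construction, the cause was not tested. Replicate numbers 2 and 3 occur in both genotypes, and same-numbered libraries deviated together from their group means (r = 0.479 and 0.27 over genes). Deviations from a group mean cancel out within a genotype. The value for WT replicate 4 and KO replicate 1 (r = 0.431) therefore follows from those of replicates 2 and 3 and is no separate observation. The labels do not say what a number shares. The block raised the calls from 1311 to 1548 and, among genes named here, called Myoz2 (adjusted p = 0.00618 in limma) and Calm2 (0.0135) and ended the calls of Dyrk1b (0.0835) and Ppp1r1a (0.0501).

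The number of genes called ranged from 471 to 1637 with single replicates left out and was 2010 in limma-voom with no filter. The number called in the pathway lists, 16, ranged from 7 to 17 with single replicates left out. Depth limits Nfatc2 most, at 94 reads in its lowest library.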
